A study of Mus musculus with 10 samples.

Results

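Expression of 10 genes of the YAP, TAZ and TEAD mechanosensing system was examined in mouse lung at postnatal day 14 (P14), 7 days after an operation that increased pulmonary blood flow (IncPBF). They were chosen by symbol from 54532 gene rows: the coactivator genes Yap1 and Wwtr1 (which encodes TAZ), the transcription factor genes Tead1, Tead2, Tead3 and Tead4, the regulators Lats2, Ajuba and Amotl2, and the target gene Ankrd1. All 10 were listed once and all 10 were among the 15388 genes with a mean level of at least 0.5 FPKM (fragments per kilobase of gene, scaled for sequencing depth), which were the genes tested. In the IncPBF group, wild-type pups received at P7 a puncture from the abdominal aorta into the inferior vena cava, a fistula that loads the whole circulation with volume and not the lung alone. In the sham group, wild-type pups of the same age had the same operation without the puncture. Total RNA of lung tissue was sequenced from 5 lungs per group, and nothing in the labels pairs an IncPBF lung with a sham lung.

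YAP and TAZ are transcriptional coactivators without a DNA-binding domain of their own, and they reach their target genes mainly through the TEAD factors. The Hippo kinases, with LATS1 and LATS2 as the last step, phosphorylate YAP and TAZ and keep them out of the nucleus, and stretch, stiff matrix and actin tension counter this. In the alveolar epithelium the pathway is known for its part in the flat alveolar type 1 (AT1) cell state and in the growth and repair of the lung. Its activity is set largely by where the proteins sit in the cell, which an RNA level does not show.

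TEAD factors recognise the element GGAATG, read as CATTCC on the other strand. Both spellings were searched in the 250 bases before each RefSeq transcript start (GRCm38.p6). Of the 10 genes, 8 were matched in the promoter table by symbol, with 12 windows in all. The element was found in at least 1 window of 6 of the 8 genes (75%) and in 8 of the 12 windows, while 14.4% of the 27025 genes and 12.6% of the 32851 windows in the table held it. The following windows, 5′ to 3′ on the strand of each gene and with the element in capitals, belong to the 2 genes whose groups did not overlap, Ankrd1 (chr19:36119845-36120094, minus strand) and Tead2 (chr7:45215542-45215791, plus strand), and to Wwtr1, the most abundant of the 10 genes (chr3:57575911-57576160, minus strand).
Ankrd1: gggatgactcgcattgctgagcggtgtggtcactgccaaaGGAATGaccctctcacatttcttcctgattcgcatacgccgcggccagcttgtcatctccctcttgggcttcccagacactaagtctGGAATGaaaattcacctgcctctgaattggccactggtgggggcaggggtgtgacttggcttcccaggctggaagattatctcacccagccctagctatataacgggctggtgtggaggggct
Tead2: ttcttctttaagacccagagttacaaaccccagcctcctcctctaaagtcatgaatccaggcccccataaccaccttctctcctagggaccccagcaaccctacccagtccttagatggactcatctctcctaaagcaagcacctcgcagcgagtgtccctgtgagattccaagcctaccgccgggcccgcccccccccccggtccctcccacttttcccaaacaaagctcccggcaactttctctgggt
Wwtr1: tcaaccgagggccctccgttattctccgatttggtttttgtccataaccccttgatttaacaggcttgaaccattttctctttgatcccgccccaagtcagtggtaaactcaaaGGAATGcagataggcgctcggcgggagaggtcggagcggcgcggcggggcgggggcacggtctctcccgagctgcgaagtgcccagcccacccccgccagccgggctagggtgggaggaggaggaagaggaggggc
Ankrd1 held the element 210 and 123 bases before its start, and 0.992% of all windows held 2 or more. Wwtr1 held it 136 bases before its start and Yap1 held it 141 bases before. The Tead2 window, of a gene that rose, held none. A match is a stretch of letters and not a measured binding site.

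The libraries held 16103423 to 20318525 fragments after IncPBF and 18171494 to 19400575 after sham surgery. Some lungs stood apart. Xist, the RNA of the inactive X chromosome, was at 52.4 to 66.5 FPKM in IncPBF lungs 2 to 5, at 0.0144 FPKM in IncPBF lung 1 and at no more than 0.0770 FPKM in the 5 sham lungs, and the Y-linked gene Ddx3y was at 18.6 FPKM in IncPBF lung 1, at 21.9 to 24.5 FPKM in the sham lungs and at or near 0 in the others. Surgery and the sex-linked difference therefore cannot be told apart over IncPBF lungs 2 to 5. Sham lung 5 held 128 FPKM of the club cell gene Scgb1a1, against 4802 FPKM or more in every other lung. The lung identity of the samples was plain from the surfactant gene Sftpc, whose mean was 10428 FPKM after IncPBF and 12095 FPKM after sham surgery.

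In the comparison of IncPBF with sham lungs, Tead2 and Ankrd1 were upregulated and Tead4 and Amotl2 were downregulated, by limma with Benjamini-Hochberg adjusted p under 0.05. The other 6 genes, among them Yap1, Wwtr1 and Lats2, did not pass. Called genes were 32.3% of all genes tested, 16.1% higher and 16.2% lower in the IncPBF group, so 4 called of 10 was near the share found over all genes. The even split over all genes depended on the scaling. As deposited, 2480 genes were higher and 2490 lower. After median centring 2451 were higher and 2529 lower, and after quantile normalization 2554 and 2567. With every lung scaled to an equal total the counts were 3559 and 1782, and by limma-voom on fragments 3653 and 1863. Of the 10 genes, 3 were higher and 2 lower at equal totals, by limma-voom and after quantile normalization, Ajuba being the one added. The 2 groups did not overlap for Tead2 and Ankrd1, against 23.2% of all genes tested. The called genes took opposite directions within the TEAD family, and neither coactivator gene passed the threshold. All 4 calls were also made in each of the 10 fits that left out 1 lung, sham lung 5 and IncPBF lung 1 included.

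**Figure D1:**
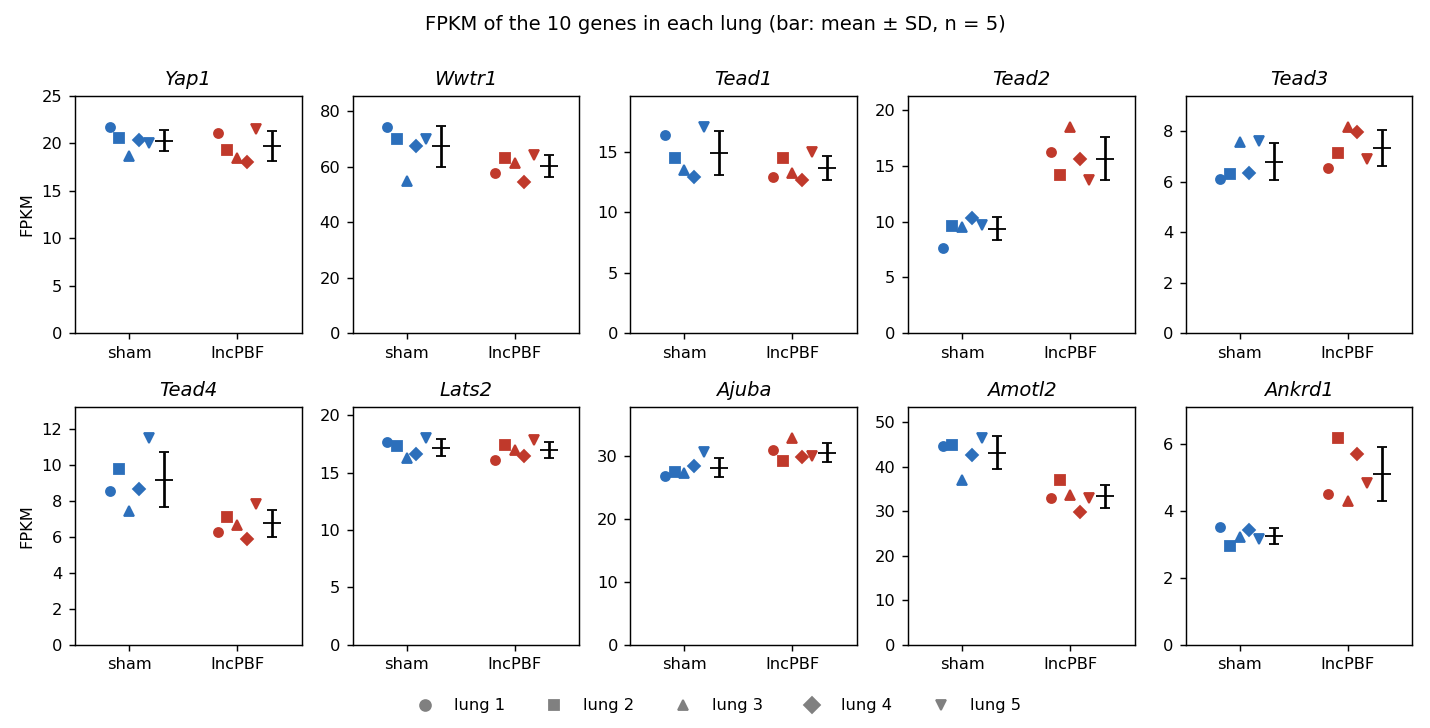
FPKM of each of the 10 genes (y axes, each from 0) in the 5 sham lungs (blue) and the 5 IncPBF lungs (red), with the lung number as marker shape and the mean ± SD in black. Tead2 and Ankrd1 show IncPBF lungs all above the sham lungs; Tead4 and Amotl2 lie lower with a narrow overlap; Yap1 and Lats2 lie at one level.

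Wwtr1 (chr3:57455649-57575910, minus strand, GRCm38, as are all positions here) was the most abundant of the 10 genes in both groups. Its levels in IncPBF lungs 1 to 5 were 57.9, 63.2, 61.2, 54.4 and 64.4 FPKM (60.2 ± 4.06, SD, n = 5). In sham lungs 1 to 5 they were 74.4, 70.1, 54.8, 67.3 and 70.1 FPKM (67.3 ± 7.47, SD, n = 5). The other 4 sham lungs lay above every IncPBF lung, while sham lung 3 was second lowest of all 10 lungs. The log2 fold change was -0.16 (95% interval -0.34 to 0.03, limma adjusted p = 0.173), and without sham lung 3 it was -0.23 (limma adjusted p = 0.0164), so the call on Wwtr1 turned on that lung. The estimate also moved with the scaling, to -0.08 at equal totals (limma adjusted p = 0.418) and -0.08 by limma-voom (adjusted p = 0.412).

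Yap1 (chr9:7931999-8004596, minus strand) showed no such gap. Its levels were 21.1, 19.3, 18.5, 18.0 and 21.5 FPKM in the IncPBF lungs (19.7 ± 1.56, SD, n = 5) and 21.8, 20.5, 18.7, 20.3 and 20.1 FPKM in the sham lungs (20.3 ± 1.11, SD, n = 5). The groups overlapped over nearly their whole range. On the log2 scale the fold change was -0.04 with a 95% interval of -0.18 to 0.09 (limma adjusted p = 0.629). That interval covers the spread between these lungs as scaled in the deposited values, and neither the sex-linked difference nor other scalings. TAZ RNA exceeded YAP RNA in every lung, with a ratio of Wwtr1 to Yap1 FPKM of 3.07 ± 0.231 in IncPBF lungs and 3.31 ± 0.222 in sham lungs (SD, n = 5 each), and the ratios overlapped. The FPKM rest on lengths of 4779 bases for Wwtr1 and 9257 for Yap1, while their longest annotated transcripts hold 4697 and 5282 bases. The size of the ratio, like any comparison of levels between genes here, depends on the length used.

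Among the 4 TEAD genes, Tead2 (chr7:45215753-45233644, plus strand) changed most. TEAD2 is the family member best known from the early embryo and from mesenchymal and neural progenitors. The 5 IncPBF lungs held 16.2, 14.1, 18.5, 15.6 and 13.8 FPKM (15.6 ± 1.89, SD, n = 5). The 5 sham lungs held 7.61, 9.66, 9.52, 10.3 and 9.72 FPKM (9.36 ± 1.03, SD, n = 5). The lowest IncPBF lung, lung 5, was above the highest sham lung, lung 4. The log2 fold change was 0.73 (SE 0.10), or 1.66-fold (95% interval 1.43 to 1.93), with a limma adjusted p of 0.000297 and a two-sided exact permutation p of 0.00794, the smallest that 5 lungs against 5 allow. Cd37, which overlaps the last 13 bases of Tead2 on the opposite strand, had a log2 fold change of -0.06 (limma adjusted p = 0.688).

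Tead4 (chr6:128224288-128300823, minus strand) moved the other way. TEAD4 is known for its role in the trophectoderm of the early embryo and in muscle. Its levels were 6.27, 7.10, 6.65, 5.90 and 7.84 FPKM in the IncPBF lungs (6.75 ± 0.757, SD, n = 5) and 8.55, 9.79, 7.43, 8.65 and 11.5 FPKM in the sham lungs (9.19 ± 1.55, SD, n = 5). IncPBF lung 5 lay above sham lung 3, and the groups were otherwise apart. The log2 fold change was -0.43 (SE 0.11, 95% interval -0.68 to -0.18, limma adjusted p = 0.0146, exact permutation p = 0.0159).

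Tead1 and Tead3 did not pass the test. Tead1, broadly expressed and the most abundant TEAD gene in the sham group, averaged 13.7 ± 1.02 FPKM after IncPBF and 14.9 ± 1.82 FPKM after sham surgery (SD, n = 5 each; log2 fold change -0.12, limma adjusted p = 0.329). Tead3, best known from the placenta, was at 7.34 ± 0.710 FPKM and 6.79 ± 0.746 FPKM (SD, n = 5 each; log2 fold change 0.11, limma adjusted p = 0.358). For both genes the ranges of the groups overlapped.

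Because the 4 factors bind the same element, their make-up was also described as shares of the summed TEAD FPKM of a lung, a quantity that the scaling of a library does not touch. The sum itself overlapped between groups, at 43.4 ± 1.90 FPKM for IncPBF and 40.2 ± 3.31 FPKM for sham (SD, n = 5 each). Tead2 made up 36.0 ± 3.54% of it in IncPBF lungs (31.7 to 39.7%) and 23.4 ± 2.96% in sham lungs (19.7 to 27.0%). Tead4 made up 15.6 ± 1.71% (at most 18.0%) and 22.7 ± 2.15% (at least 19.6%), respectively. Neither share overlapped between groups. The shares of a lung add up to the whole, so a larger Tead2 share makes the others smaller. The 2 shares are thus not separate results, and the FPKM of Tead4 itself did overlap between groups. Tead2 was thus level with Tead4 in the sham group, with a ratio of 1.04 ± 0.191, and above it in every IncPBF lung, with a ratio of 2.35 ± 0.451 and a lowest value of 1.76. The Tead1 share, 31.5 ± 2.54% for IncPBF and 37.0 ± 3.29% for sham, overlapped, and the Tead3 share was 16.9% on average in both. In bulk tissue, fewer cells of a type and less RNA per cell cannot be told apart.

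**Figure D2:**
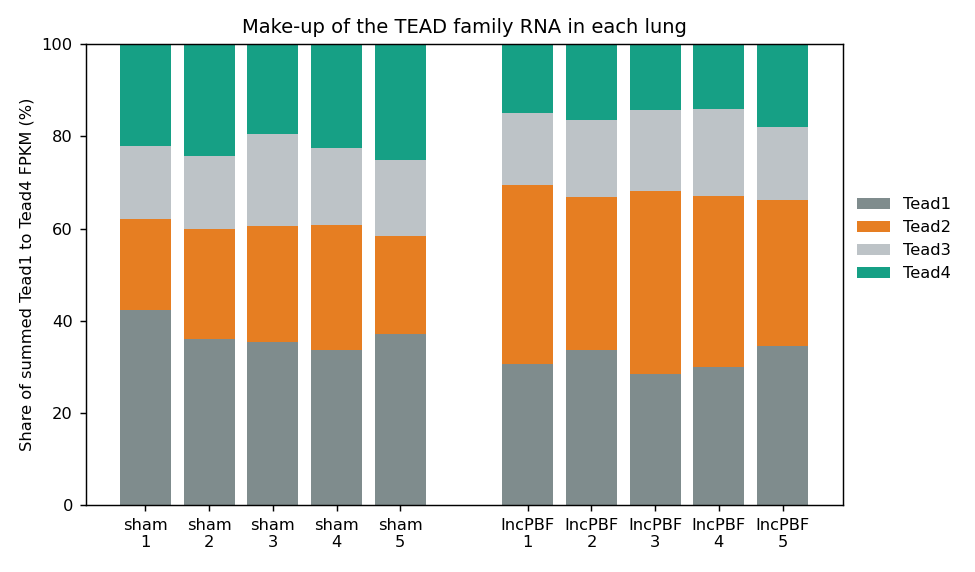
Stacked bars of the share (%) of each TEAD gene in the summed Tead1 to Tead4 FPKM, for 5 sham lungs (left) and 5 IncPBF lungs (right), 1 bar per lung. The Tead2 share is 31.7% or more in each IncPBF lung and 27.0% or less in each sham lung, and the Tead4 share is narrower in every IncPBF lung.

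Of the 3 regulators, Amotl2 alone passed the test. Amotl2 encodes an angiomotin-family scaffold of cell junctions that holds YAP in the cytoplasm, and it is also a known YAP/TAZ target gene. At chr9:102716672-102733418 (plus strand), its levels in IncPBF lungs 1 to 5 were 32.9, 37.1, 33.6, 29.9 and 33.0 FPKM (33.3 ± 2.58, SD, n = 5). In sham lungs they were 44.6, 44.9, 36.9, 42.7 and 46.5 FPKM (43.1 ± 3.73, SD, n = 5). The ranges touched only where IncPBF lung 2 lay just above sham lung 3. The log2 fold change was -0.37 (SE 0.07, 95% interval -0.53 to -0.21, limma adjusted p = 0.00323, exact permutation p = 0.0159).

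Lats2, the kinase that phosphorylates YAP and TAZ and itself a target gene, had the narrowest interval of the 10 genes. IncPBF lungs averaged 17.0 ± 0.688 FPKM (16.1 to 17.8) and sham lungs 17.2 ± 0.722 FPKM (16.3 to 18.1; SD, n = 5 each). Its log2 fold change was -0.02 (95% interval -0.12 to 0.09, limma adjusted p = 0.805). Ajuba encodes a LIM protein that binds LATS kinases at tense junctions and restrains them. It was at 30.8, 29.1, 32.8, 29.7 and 30.0 FPKM in the IncPBF lungs (30.5 ± 1.44, SD, n = 5) and at 26.7, 27.4, 27.2, 28.4 and 30.6 FPKM in the sham lungs (28.1 ± 1.53, SD, n = 5). Only sham lung 5 reached into the IncPBF range. Its log2 fold change of 0.12 (95% interval 0.00 to 0.23) missed the threshold at a limma adjusted p of 0.103, and it passed when every lung was scaled to an equal total (0.20, limma adjusted p = 0.0113) or when sham lung 5 was left out (0.15, limma adjusted p = 0.0486).

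Ankrd1 encodes a cardiac ankyrin repeat protein that is induced by stretch in muscle and is among the most used readouts of YAP/TAZ activity. At chr19:36111965-36119844 (minus strand), it was the least abundant of the 10 genes, with 97 to 205 fragments per lung. The IncPBF lungs held 4.51, 6.20, 4.29, 5.71 and 4.86 FPKM (5.11 ± 0.811, SD, n = 5), and the sham lungs held 3.54, 2.95, 3.22, 3.44 and 3.16 FPKM (3.26 ± 0.233, SD, n = 5). The lowest IncPBF lung, lung 3, was above the highest sham lung, lung 1. Its log2 fold change was 0.62 (SE 0.10), or 1.54-fold (95% interval 1.32 to 1.80), with a limma adjusted p of 0.00115 and an exact permutation p of 0.00794.

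Ankrd1 is a muscle gene, and muscle markers moved beside it. The 10 smooth muscle and myofibroblast markers summed to 340 to 635 FPKM after IncPBF and to 143 to 271 FPKM after sham surgery; 5 of the 10 were upregulated and 1 was downregulated, with Acta2 at 312.7 against 107.7 FPKM and Des at 46.7 against 27.5 FPKM on average (16.1% of all genes were called higher). With the Xist covariate none of the 10 was called by limma (1 had an unadjusted p under 0.05), and IncPBF lung 1 differed less from the sham mean than the mean of IncPBF lungs 2 to 5 did, by 1.06 against 1.70 on the log2 scale for Acta2 and 0.38 against 0.83 for Des. Of the 10 cardiac muscle markers, 6 were tested and none was called. Summed, they reached 33.9 to 102 FPKM after IncPBF and 8.99 to 47.8 FPKM after sham surgery, most of it Actc1. IncPBF lungs 2 and 4, highest in Ankrd1, were also highest in the atrial gene Myl7, at 10.6 and 11.8 FPKM against 2.07 FPKM or less elsewhere, while Nppa had at most 3 fragments in any lung. IncPBF lungs 1, 3 and 5 had Myl7 at 0.0877, 0.367 and 0.816 FPKM, none of them above the highest sham lung, and their Ankrd1 was still above all sham lungs. The part of either muscle type in the Ankrd1 difference was not tested.

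**Figure D3:**
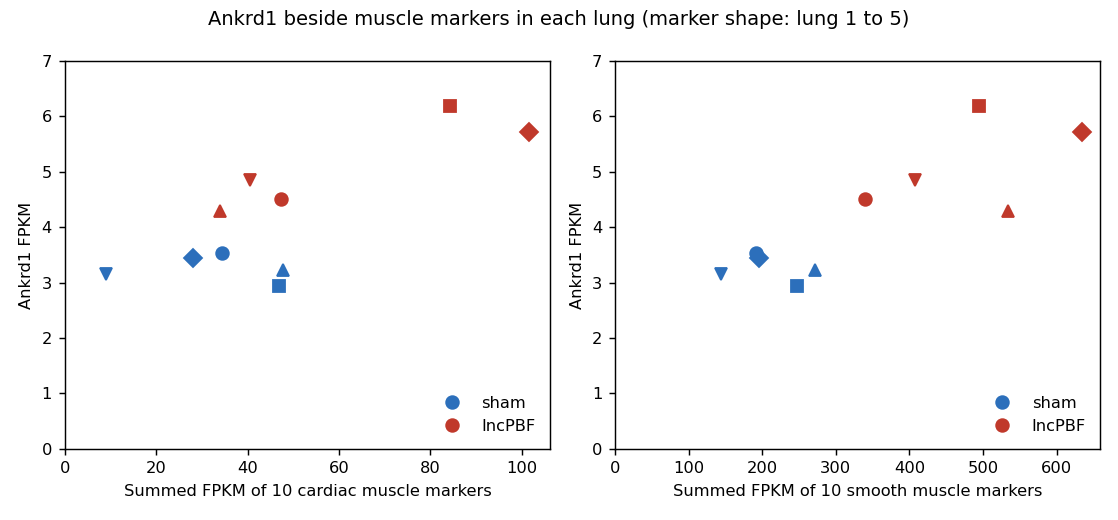
Ankrd1 FPKM (y axis) in each lung against the summed FPKM of 10 cardiac muscle markers (left) and of 10 smooth muscle and myofibroblast markers (right), for sham lungs (blue) and IncPBF lungs (red), with the lung number as marker shape. IncPBF lungs 2 and 4 lie highest on the cardiac axis and on the Ankrd1 axis, and the smooth muscle sums of the groups do not overlap.

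Markers of other lung cells moved beside the genes that fell. Of 10 AT1 markers, 9 were downregulated and none was upregulated, and their sum was 1323 to 1469 FPKM after IncPBF and 1644 to 2210 FPKM after sham surgery, led by Ager (584 against 853 FPKM) and Hopx (155 against 219 FPKM). Of 10 endothelial markers, 7 were downregulated and 1 upregulated (sums of 1599 to 1678 and 1733 to 2174 FPKM), with Cldn5 at 428 against 405 FPKM and Cdh5 at 248 against 339 FPKM. Of 8 AT2 markers, 5 were downregulated, with Sftpb at 804 against 1250 FPKM. Sftpc, at 10428 against 12095 FPKM, was not called (log2 fold change -0.21, limma adjusted p = 0.358). The AT2 sums, most of them Sftpc, were 11170 to 13811 and 13639 to 16866 FPKM and overlapped. All 4 mesothelial markers tested were downregulated (sums of 46.7 to 76.2 and 82.4 to 159 FPKM), among them Upk1b at 29.2 against 51.8 FPKM and Msln at 21.9 against 41.3 FPKM. Over all genes, 16.2% were called lower. With the Xist covariate none of the AT1, AT2 and endothelial markers and 1 mesothelial marker was called by limma, with 5 AT1, 4 AT2 and 6 endothelial markers at an unadjusted p under 0.05, and at equal totals 6 of the 10 AT1 markers were called lower. Their part in the lower levels of Amotl2 and Tead4 was not tested.

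The sex-linked difference was set beside each result by taking the log2 Xist level as a covariate. Since all sham lungs were low in Xist, that fit draws the group difference mainly from IncPBF lung 1 against the sham lungs, and the median standard error of the 10 genes rose from 0.084 to 0.146. Over all genes, 4.82% were called, and of the 10 only Tead2 was (log2 fold change 0.78, limma adjusted p = 0.0344). The estimates for the other called genes had the same direction, at 0.46 for Ankrd1 (limma adjusted p = 0.164), -0.49 for Tead4 (limma adjusted p = 0.200) and -0.37 for Amotl2 (limma adjusted p = 0.148). IncPBF lung 1 itself lay beyond all 5 sham lungs, in the direction of its group, for all 4 called genes. For Tead2 and Ankrd1 this follows from the lack of overlap between the groups. It rests on 1 lung, the one on which the covariate fit mainly draws, so it is no separate check. The distance of IncPBF lung 1 from the sham mean on the log2 scale was 0.79 for Tead2, against 0.72 for the mean of IncPBF lungs 2 to 5. The same values were 0.46 against 0.66 for Ankrd1, -0.53 against -0.41 for Tead4 and -0.39 against -0.37 for Amotl2.

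**Figure D4:**
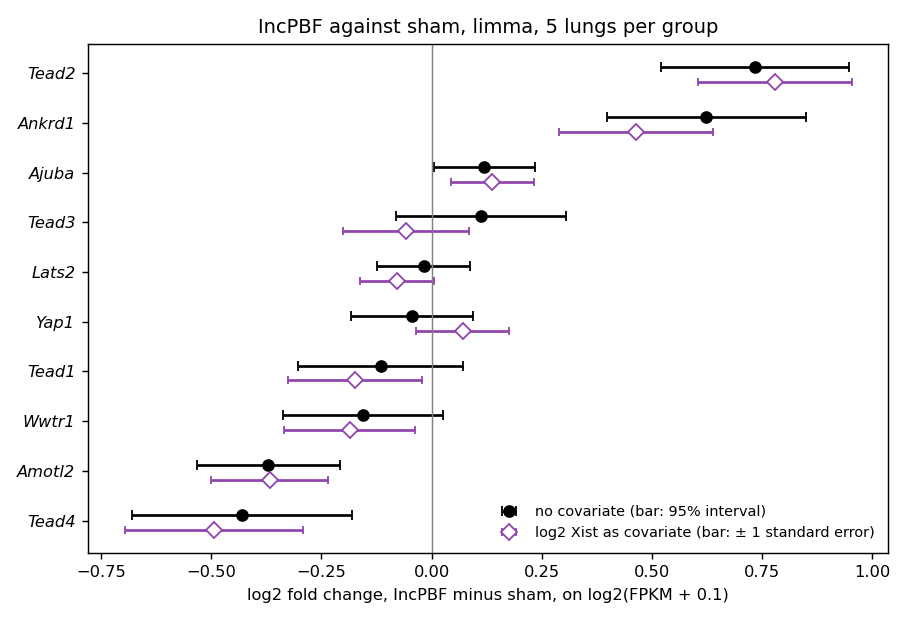
Log2 fold change of IncPBF over sham on log2(FPKM + 0.1) for the 10 genes, from limma without a covariate (black, 95% interval) and with the log2 Xist level as covariate (purple, ± 1 standard error). Tead2, Ankrd1, Amotl2 and Tead4 keep their direction with the covariate, with wider errors, and Yap1 and Tead3 lie on the other side of 0.

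Whether the wider set of YAP/TAZ target genes moved one way was described with 22 targets known from cell studies, Ankrd1, Amotl2 and Lats2 among them. Of the 22, 3 were upregulated, 7 were downregulated and 12 did not pass, with a median log2 fold change of -0.05 beside 0.01 over all genes tested. Called genes were 45.5% of the list, against 32.3% of all genes tested. The upregulated targets were Tgfb2, a TGF-β ligand, at 32.7 against 14.5 FPKM (log2 fold change 1.17), Ankrd1, and Foxf2, a mesenchymal forkhead factor, at 53.3 against 35.5 FPKM (0.58). Those with the lowest adjusted p among the downregulated targets were Igfbp3, which binds insulin-like growth factors, at 11.1 against 31.6 FPKM (-1.50), Nt5e, an ectonucleotidase, at 7.24 against 10.7 FPKM (-0.55), and Amotl2. The list thus held called genes in both directions. At equal totals and by limma-voom, 6 were higher and 6 lower in each. Over all genes those settings gave 3559 higher and 1782 lower, and 3653 and 1863, so the even split stood beside a background of mostly higher calls. The lean toward lower calls remained after quantile normalization (4 higher and 8 lower) and after median centring (3 and 7).

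Ctgf (Ccn2) and Cyr61 (Ccn1), the classical targets, fall outside the rule for named genes and were looked at after their values were seen. Ctgf averaged 98.2 FPKM after IncPBF and 102 FPKM after sham surgery (log2 fold change -0.06, limma adjusted p = 0.699). Cyr61 ran from 45.2 to 158.5 FPKM after IncPBF and from 28.5 to 61.5 FPKM after sham surgery, and its log2 fold change of 0.89 had a standard error of 0.33 (limma adjusted p = 0.0601). The call on Cyr61 depended on the scaling and on single lungs: it passed at equal totals (0.97, limma adjusted p = 0.0431), by limma-voom (0.98, adjusted p = 0.0230) and in 3 of the 10 fits without 1 lung, where the adjusted p ran from 0.0326 to 0.124. With the Xist covariate its log2 fold change was 0.37 (limma adjusted p = 0.752), and IncPBF lung 1 lay within the sham range.

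Of 32 Hippo kinases, scaffolds and regulators, 30 were tested, and 2 were upregulated and 9 downregulated, with a median log2 fold change of -0.12. Called genes were 36.7% of those tested, near the 32.3% found over all genes. Vgll1 was listed at 0 and Vgll2 had at most 1 fragment. The kinase genes Stk3, which encodes MST2 (0.24, limma adjusted p = 0.0198), and Stk38l (0.22, limma adjusted p = 0.0206) were the upregulated ones. Beside Amotl2, those with the lowest adjusted p among the downregulated genes were Ptpn14, a phosphatase that binds YAP (-0.42, limma adjusted p = 0.00448), and the upstream kinase gene Taok3 (-0.37, limma adjusted p = 0.00525). Several of the genes that fell encode inhibitors of YAP and TAZ, as do both kinases that rose. Stk4 (-0.34, limma adjusted p = 0.0292) and Sav1 (-0.37, limma adjusted p = 0.0113) were also among the 9 that fell. Stk4 passed in only 5 of the 10 fits without 1 lung and missed the threshold at equal totals (limma adjusted p = 0.0541). Sav1 passed in all 10 and at equal totals (limma adjusted p = 0.0204). With the Xist covariate none of the 30 was called by limma (4 had an unadjusted p under 0.05), and the count was 7 without IncPBF lung 2. The split also moved with the scaling, to 5 higher and 6 lower at equal totals and 5 and 7 by limma-voom. Over all genes those settings gave 3559 higher and 1782 lower, and 3653 and 1863, so the calls as a whole had moved toward higher. After quantile normalization the split of the list was 4 and 9, and after median centring 2 and 9.

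Of 20 genes of adhesion, the actin cytoskeleton and the actin-sensing MRTF/SRF branch, 5 were upregulated and 6 were downregulated, with a median log2 fold change of -0.07. Srf, the transcription factor of the MRTF/SRF branch, was upregulated at 27.2 against 19.1 FPKM (0.51), with the actin-severing gene Cfl1 (0.34) and the focal adhesion kinase gene Ptk2 (0.17). The MRTF genes of the same branch were lower. Mkl2 was called (-0.25, limma adjusted p = 0.0317), though not at equal totals (limma adjusted p = 0.0708), and Mkl1 was not called (-0.19, limma adjusted p = 0.0770). The formin gene Diaph1, whose product builds unbranched actin filaments, was among the downregulated genes (-0.37); others with a low adjusted p are not reported by name here. At equal totals, where the calls over all genes also moved toward higher, the split was 6 higher and 4 lower. By limma-voom, with the same move over all genes, the split was 6 and 5. After quantile normalization and after median centring it was 5 and 6. The Xist covariate left 3 of the 20 called, 1 higher (Srf) and 2 lower, and left 2 of the 22 targets called, Tgfb2 and Igfbp3. All lists were drawn up with earlier results of these data known (the share called over all genes was 32.3%).

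**Figure D5:**
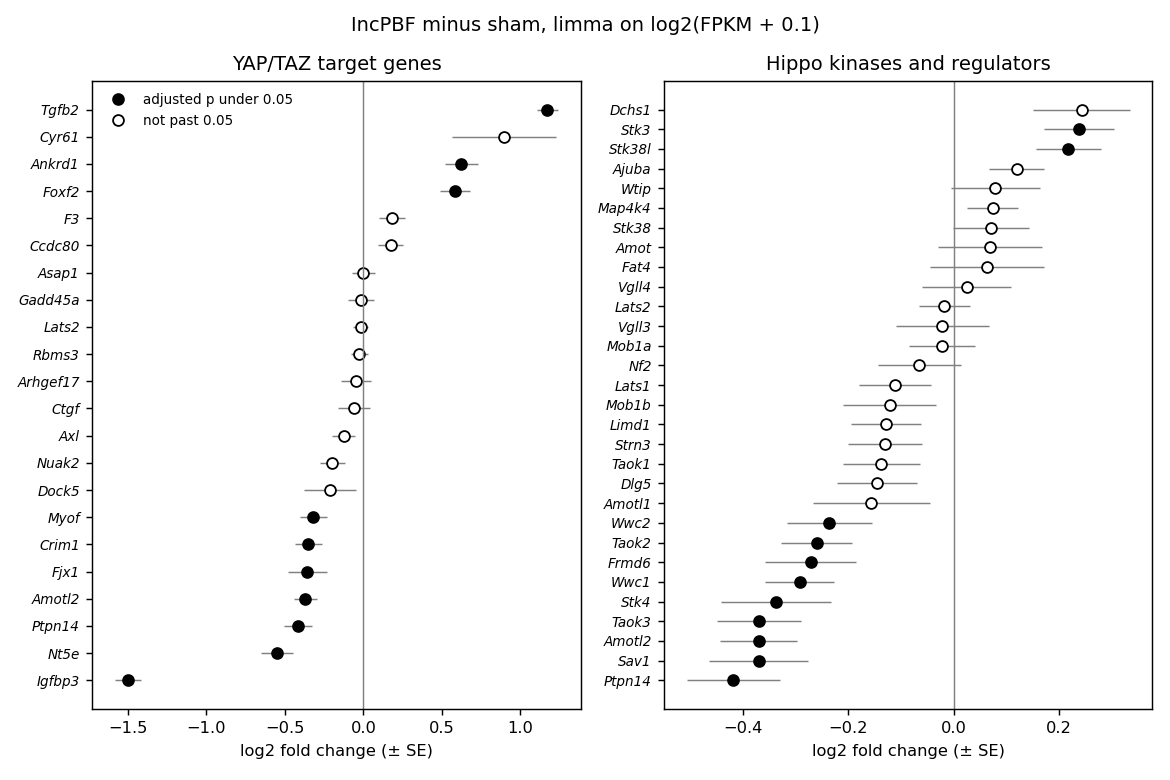
Log2 fold change of IncPBF over sham (± standard error) for the tested genes of 2 lists: 22 YAP/TAZ target genes and 30 Hippo kinases and regulators; the x axes differ in range. Filled points have a limma adjusted p under 0.05: 3 higher and 7 lower among the targets, and 2 higher and 9 lower among the regulators.

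By level per kilobase, the order in the sham group was Wwtr1, Amotl2, Ajuba, Yap1, Lats2, Tead1, Tead2, Tead4, Tead3 and Ankrd1. Neighbours whose ranges over the 5 lungs overlapped were Lats2 with Tead1, Tead2 with Tead4, and Tead4 with Tead3. In the IncPBF group Tead2 stood between Lats2 and Tead1 and overlapped both, Amotl2 overlapped Ajuba, and Tead4 overlapped both Tead3 and Ankrd1, the lowest of the 10. Wwtr1 ranked 620 by mean FPKM among the 15388 genes tested, and Ankrd1 ranked 8907.

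Genes with the most similar pattern over the 10 lungs were found by the root mean square difference of log2 levels, each centred on its mean. For Ankrd1 they were Idi1, Hmgcs1 and Pianp, each at 0.12, beside a spread of Ankrd1 itself of 0.35 about its mean. For Wwtr1 they were Zdhhc9 (0.044), Eloa (0.047) and Hnrnpul2 (0.049), beside 0.147 for Wwtr1. For Yap1 they were Dnajc14 (0.035), Edem3 (0.035) and Mob1a (0.037), the last a cofactor of the LATS kinases, and for Lats2 they were Ccni, Tollip and Zc3h14 (each 0.031). Yap1 and Lats2 hardly varied between lungs, at 0.090 and 0.054 about their means.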

How the data were processed

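Per the labels, lungs were frozen, RNA was taken with Trizol and libraries were made with a NEBNext Ultra kit; whether counting used strand is not given in the sources used here. The authors deposited FPKM per gene, with gene length and coordinates; the submitters' notes name Bowtie 0.12.2 and the builds hg38, GRCm38 and mm10 with no role, and 9 of the 10 gene spans equal those of GENCODE M21 (GRCm38), all but Ankrd1. The IncPBF columns carry a group name and number, and lung numbers are those of the columns. Multiplying FPKM by length gave whole fragments (tolerance 0.02), whose sums are the depths.

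Genes with a mean of at least 0.5 FPKM entered limma 3.58.1 in R 4.3.3 as log2(FPKM + 0.1) (empirical Bayes with trend, 5 against 5 lungs), which understates folds of low genes; p-values were Benjamini-Hochberg adjusted over all 15388 genes. Exact permutation tests were two-sided over 252 splits. Nothing says how many litters the lungs came from, so p-values measure the spread between these lungs. The script was tested on simulated data. The 10 genes and the lists were chosen with earlier results of these data known. Named genes were the 10, the 3 with the lowest adjusted p per direction of each pathway list, 3 nearest patterns for 4 of the 10 genes, the 2 most abundant markers per cell type (skeletal muscle markers, 3 of 8 tested and none called, were not described), Xist and Ddx3y. Of the downregulated genes of the adhesion and actin list, 2 that this rule names are not reported here. Scgb1a1, Nppa, Cd37, Vgll1, Vgll2, Stk4, Sav1, Mkl1, Mkl2, Ctgf and Cyr61 were named outside the rule. Promoters came from RefSeq.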

Additional observations from a re-analysis of the deposited data

How the results depend on the processing

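Each of the 10 genes was recomputed under 21 settings, 210 comparisons in all: 195 kept direction and side of the threshold, 5 gained a call, 3 lost it and 7 changed sign. The 3 losses were Ankrd1, Tead4 and Amotl2 with the Xist covariate, which left 1 of the 10 genes called, 2 YAP/TAZ targets, 0 Hippo regulators and 3 mechanosensing genes. Of the genes not called, Yap1 turned to 0.0702 with that covariate, 0.0353 at equal totals and 0.0358 by limma-voom on fragments, Lats2 to 0.0612 at equal totals, 0.0621 by limma-voom and 0.0032 by quantile normalization, and Tead3 to -0.0582 with the covariate. The cause of the changes with the covariate and by quantile normalization was not tested. The divisor recovered from the deposited FPKM was 1.02 to 1.07 times the fragments on genes in IncPBF lungs. In sham lungs it was 0.958 to 1.03 times that total. Equal totals replace this divisor with the fragments on genes, and limma-voom does not use it. Both moved the median of all genes from 0.01 to 0.09.

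Leaving out 1 lung in turn gave 4 to 5 of the 10 genes and 7 to 11 Hippo regulators called, the fewest without IncPBF lung 2. Same-numbered lungs showed little common deviation (correlations of -0.07 to 0.09, and 2 of 5 lungs matched their own number best). With 5 lungs per group this cannot exclude a pairing that the labels do not give. A replicate block called 4 of the 10 genes, 10 targets, 11 Hippo regulators and 10 mechanosensing genes, and 4872 genes in all against 4970 without it. Depth limits Ankrd1 most, at 97 to 205 fragments per lung. Intervals cover the spread between lungs.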
